A study of Mus musculus with 25 samples.

Results

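Expression of 8 genes that carry the interferon gamma signal was followed through 25 mouse melanomas. They are the ligand Ifng, the receptor chains Ifngr1 and Ifngr2, the receptor kinases Jak1 and Jak2, the transcription factor Irf1 and the feedback inhibitors Socs1 and Socs3. The genes were chosen by symbol from the 55450 rows of the deposited gene count table, and each symbol matched 1 row. All tumours grew from B2905, a mouse melanoma cell line also called M4, in C57BL/6 mice, and antibody dosing at 10 mg/kg started once tumours averaged 75 mm3. The 5 control tumours came from mice given the isotype antibody IgG2b, and the other 20 from mice given anti-CTLA-4. By their course in the 10 to 11 days after the last dose, the anti-CTLA-4 tumours were divided by the submitters into 6 non-responders, which went on growing, 6 stable tumours, which kept their size, and 8 responders, which shrank. Every tumour came from the same line, so the replicates measure differences between mice and not between melanomas. Neither the day of harvest nor the age of the mice is given in the sources used here.

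Interferon gamma is released mainly by activated T cells and NK cells. It binds a receptor built from the IFNGR1 chain, which holds the ligand, and the IFNGR2 chain, which completes the signalling complex. JAK1 sits on IFNGR1 and JAK2 on IFNGR2. Signalling from the receptor acts on genes through a short palindrome called GAS (gamma activated sequence). IRF1 is an early product of this signal and a transcription factor itself, and it drives antigen presentation genes and guanylate-binding proteins through a second element, the ISRE. SOCS1 blocks JAK catalytic activity and is the main brake on the interferon gamma receptor, whereas SOCS3 acts mainly on receptors of the IL-6 family. In melanoma this pathway raises the display of antigen on tumour cells and also the checkpoint ligand PD-L1.

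The promoters of 4 of the genes are shown because each holds a GAS or an ISRE-like element. They are RefSeq sequences of the GRCm38.p6 build, reaching from 250 bases before the annotated start to 50 bases from it, and the start base counts as 0. They read 5′ to 3′ on the gene's own strand, and capitals mark the motif.
Irf1 (chr11:53769764-53770063, plus strand): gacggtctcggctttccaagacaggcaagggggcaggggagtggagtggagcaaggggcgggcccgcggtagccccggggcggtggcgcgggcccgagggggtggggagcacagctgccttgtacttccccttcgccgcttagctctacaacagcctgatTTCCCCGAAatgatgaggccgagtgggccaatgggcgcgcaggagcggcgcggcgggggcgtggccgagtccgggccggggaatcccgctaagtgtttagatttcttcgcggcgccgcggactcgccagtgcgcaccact
Socs1 (chr16:10785487-10785786, minus strand): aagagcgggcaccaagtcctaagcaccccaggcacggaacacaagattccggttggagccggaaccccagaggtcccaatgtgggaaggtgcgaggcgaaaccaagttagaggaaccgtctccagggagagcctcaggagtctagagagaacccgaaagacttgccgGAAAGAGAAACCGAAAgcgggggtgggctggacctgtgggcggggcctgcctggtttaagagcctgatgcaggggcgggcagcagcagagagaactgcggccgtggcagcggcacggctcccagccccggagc
Socs3 (chr11:117969317-117969616, minus strand): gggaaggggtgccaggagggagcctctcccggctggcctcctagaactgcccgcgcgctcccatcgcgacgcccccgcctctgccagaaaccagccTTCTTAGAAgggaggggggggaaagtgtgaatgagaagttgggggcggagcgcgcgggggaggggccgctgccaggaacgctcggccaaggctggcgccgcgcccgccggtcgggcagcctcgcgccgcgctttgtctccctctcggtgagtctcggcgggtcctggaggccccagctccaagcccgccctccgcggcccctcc
Ifng (chr10:118440796-118441095, plus strand): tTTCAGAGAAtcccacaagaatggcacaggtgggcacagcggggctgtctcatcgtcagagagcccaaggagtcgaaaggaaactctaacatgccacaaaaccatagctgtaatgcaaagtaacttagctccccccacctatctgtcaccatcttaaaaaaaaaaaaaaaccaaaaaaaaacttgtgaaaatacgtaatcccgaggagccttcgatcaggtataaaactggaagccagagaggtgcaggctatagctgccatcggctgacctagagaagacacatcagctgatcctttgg
The motif searched as GAS was TTCNNNGAA, which reads the same on both strands, and 9.55% of 27025 genes hold it in a window of this length. Irf1 had a match, TTCCCCGAA, at bases -90 to -82. Socs3 had TTCTTAGAA at -154 to -146, and Ifng had TTCAGAGAA at the far edge of its window, at -249 to -241. The Socs3 window lies wholly inside the gene span of the annotation used for counting, which starts upstream of the RefSeq start, so by that annotation this match is within the gene. The ISRE-like motif searched was GAAA, any 2 bases and GAAA again, on either strand, which 3.99% of genes hold. Socs1 had a pair of overlapping matches, GAAAGAGAAA at -83 to -74 and GAAACCGAAA at -77 to -68. Irf1 has a second RefSeq start, whose window held neither motif. No window of Ifngr1, Ifngr2, Jak1 or Jak2 contained either set of letters. These matches describe the sequence only, and no binding was measured in these tumours.

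The libraries held 8.76 to 34.3 M counts. Protein-coding genes took 82.9% to 89.2% of the counts in all 17 control, non-responder and stable tumours and in responder 5 (87.0%). In the other 7 responders that share lay between 23.8% (responder 1) and 74.3%. Low share and responder label thus nearly coincide, so a fit with the share as covariate can hardly separate it from the responder group. The number that opens each tumour's description in the labels runs group by group, and the labels do not say what it stands for. If it follows the order of processing, that order and the group cannot be told apart. Pigment cell expression in the tumours was followed with 7 markers (Mlana, Dct, Tyr, Tyrp1, Pmel, Mitf and Slc45a2). Their summed level, in CPM (counts scaled to a common library total), was 10318 to 17155 in controls and 484 to 13725 in non-responders, against 107 to 253 in stable tumours and 77.9 to 523 in responders, and no marker was at 0 throughout a group.

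Levels below are CPM after edgeR's TMM scaling, which corrects for differences in composition between libraries. Comparisons are log2 fold changes with their standard errors (SE) from edgeR's quasi-likelihood test across all 25 tumours. Adjusted p-values are Benjamini-Hochberg values over the 18032 genes tested, with 0.05 as the threshold, and all 8 genes passed the low-count filter. Pairs of comparisons that use the same group share its tumours and are not independent of each other. Statements that the tumours of groups do not overlap are descriptions, as the share of all genes without overlap was not counted.

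Ifng, the ligand, had the lowest level per transcript length of the 8 genes and the widest range. Its gene lies on chromosome 10 (GRCm38, 118441046 to 118445892). In the 5 controls it was at 0.0333, 0.221, 0.313, 0.0822 and 0.517 CPM, which came from 1, 6, 8, 3 and 10 counts. The 6 non-responders spread from 0.475 to 8.26 CPM with a median of 2.25. Stable tumours were tight and high, at 4.92 to 8.92 CPM with a median of 5.71, and responders lay at 1.56 to 6.52 CPM with a median of 3.50. Every stable and responder tumour was above every control, and 5 of 6 non-responders were too, the exception being non-responder 2 at 0.475 CPM. Ifng rose against control in stable tumours by 4.76 log2 units (SE 0.69, adjusted p = 8e-06), in responders by 4.00 (SE 0.66, adjusted p = 1.81e-05) and in non-responders by 3.66 (SE 0.66, adjusted p = 0.000793). Among the anti-CTLA-4 groups no Ifng difference passed the test. Stable minus non-responder was 1.11 (SE 0.53, adjusted p = 0.166), responder minus non-responder 0.34 (SE 0.50, adjusted p = 0.587) and responder minus stable -0.77 (SE 0.49, adjusted p = 0.215). Because these are pieces of whole tumour, more cells making a transcript and more transcript per cell cannot be told apart, for Ifng and for every gene below.

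**Figure D1:**
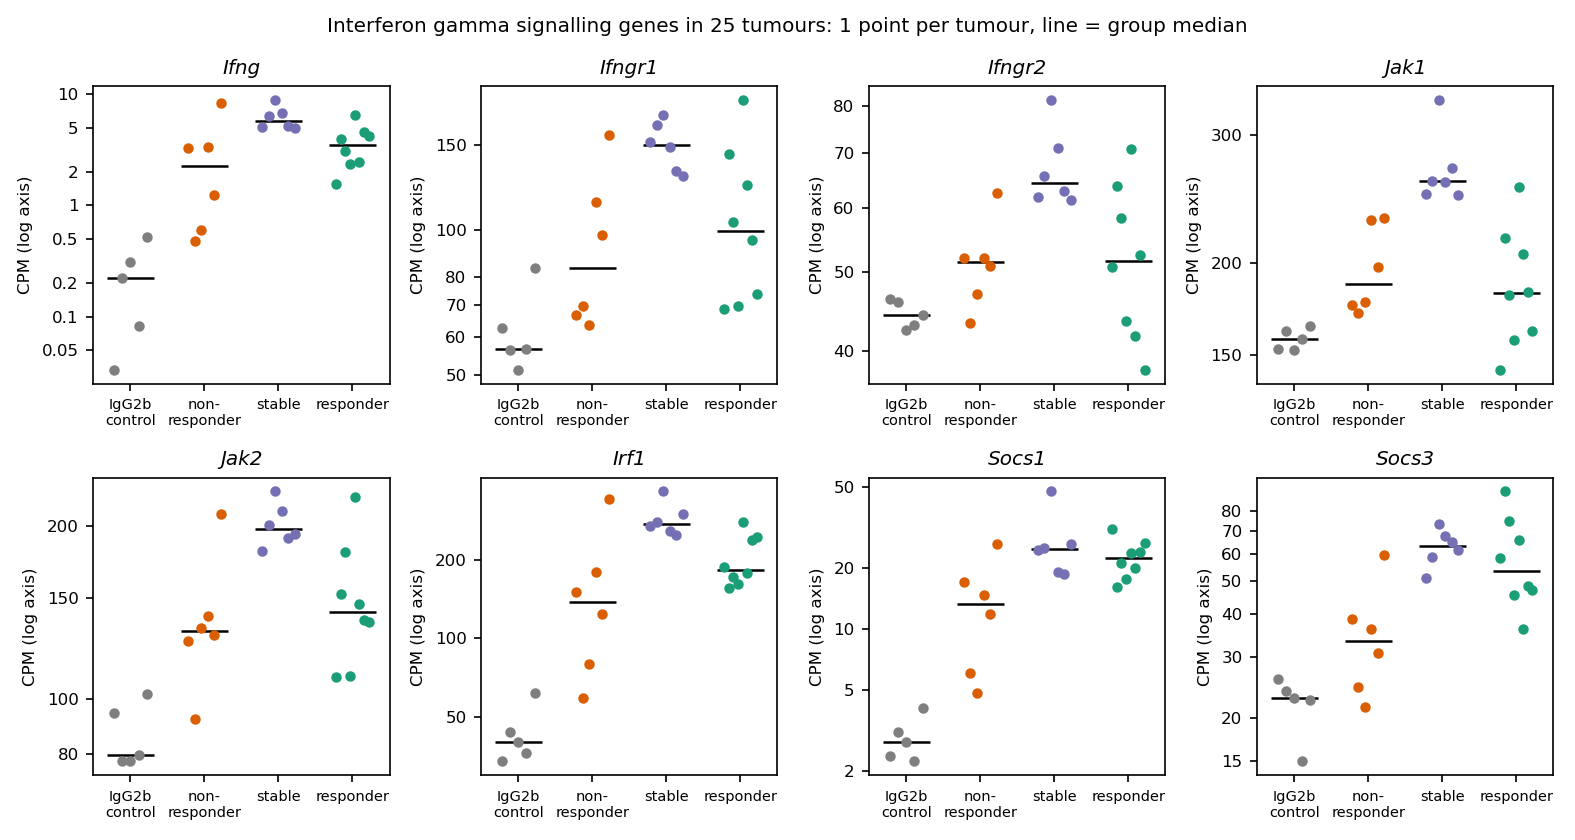
CPM of the 8 genes (log axis, a separate scale for each gene) in the 4 groups, with 1 point per tumour and a line at the group median. Ifng, Jak2, Irf1, Socs1 and Socs3 lie above every control in all stable and responder tumours, and for Ifng and Irf1 the non-responder points run from within the control range to within the stable range. The share of all genes that lie above every control in this way was not counted.

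The low Ifng counts set the precision of that gene. Responder 1, with 7 counts, and responder 4, with 17, rest on fewer counts than any other anti-CTLA-4 tumour except non-responder 2 (11 counts) and non-responder 3 (14 counts). The predicted transcript Gm49751 overlaps Ifng on the same strand and was given 0 to 3 counts in controls, 9 to 28 in stable tumours, 4 to 36 in responders and 1 to 32 in non-responders. Reads in the overlap were divided between both genes by estimation, and 16 of the 25 Ifng values were not whole numbers.

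The receptor chains had smaller log2 fold changes against control than the ligand, and Ifngr2 smaller ones than Ifngr1. Ifngr1, the ligand-binding chain (chromosome 10, 19591949 to 19610229), was at 62.6, 56.5, 51.2, 56.8 and 83.5 CPM in the controls. Non-responders ranged from 63.4 to 157 CPM (median 83.6), stable tumours from 130 to 173 (median 151) and responders from 68.5 to 187 (median 99.7). No stable tumour overlapped the controls, whereas 3 of 8 responders and 3 of 6 non-responders lay below the highest control. Ifngr1 rose in stable tumours against control by 1.28 log2 units (SE 0.25, adjusted p = 0.000264) and in responders by 0.80 (SE 0.24, adjusted p = 0.00524). The non-responder value of 0.61 (SE 0.25, adjusted p = 0.105) did not pass. Neither did the Ifngr1 differences among the anti-CTLA-4 groups, of which stable minus non-responder was the nearest to the threshold at 0.66 (SE 0.24, adjusted p = 0.0591).

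Ifngr2, the signalling chain (chromosome 16, 91547072 to 91565623), kept close to one level in the controls, at 46.3, 45.9, 42.4, 43.0 and 44.3 CPM. Non-responders held 43.2 to 62.6 CPM (median 51.4), stable tumours 61.3 to 81.5 (median 64.3) and responders 37.9 to 70.9 (median 51.5). The responders fell on both sides of the controls, with 5 above all controls and 2 below all of them. Ifngr2 rose in stable tumours, by 0.60 against control (SE 0.13, adjusted p = 0.000791) and by 0.39 against non-responders (SE 0.13, adjusted p = 0.038). It was lower in responders than in stable tumours by 0.36 on the log2 scale (log2 fold change -0.36, SE 0.12, adjusted p = 0.0203). The Ifngr2 differences of responders from control, 0.24 (SE 0.13, adjusted p = 0.0972), and of non-responders from control, 0.21 (SE 0.13, adjusted p = 0.31), did not pass the test.

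Of the kinases, Jak2 passed the test against control in all 3 anti-CTLA-4 groups and Jak1 in stable tumours; the difference between the genes was not tested. Jak1 (chromosome 4, 101152367 to 101265282, minus strand) was at 153, 162, 152, 158 and 164 CPM in the controls. It was at 171 to 231 CPM in non-responders (median 187), at 248 to 335 in stable tumours (median 259) and at 143 to 255 in responders (median 182). Stable tumours lay above every control and every non-responder. Jak1 rose in stable tumours against control by 0.77 log2 units (SE 0.13, adjusted p = 4.19e-05) and against non-responders by 0.46 (SE 0.12, adjusted p = 0.0157). In responders it was lower than in stable tumours (log2 fold change -0.52, SE 0.11, adjusted p = 0.0031), and 7 of 8 responders were below every stable tumour. All 6 non-responders were above all 5 controls in Jak1, yet the log2 fold change of 0.32 (SE 0.13, adjusted p = 0.101) did not pass. The responder minus control value of Jak1 was 0.25 (SE 0.12, adjusted p = 0.072).

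Jak2 (chromosome 19, 29251828 to 29313080) was at 94.2, 78.0, 77.7, 79.6 and 102 CPM in the controls, at 92.2 to 210 in non-responders (median 131), at 181 to 230 in stable tumours (median 197) and at 109 to 225 in responders (median 142). All stable and responder tumours were above all controls. It rose against control in stable tumours by 1.23 (SE 0.18, adjusted p = 9.51e-06), in responders by 0.79 (SE 0.17, adjusted p = 0.000299) and in non-responders by 0.68 (SE 0.18, adjusted p = 0.0112). Stable tumours exceeded non-responders in Jak2 by 0.54 (SE 0.17, adjusted p = 0.0308) and responders were below stable tumours (log2 fold change -0.43, SE 0.16, adjusted p = 0.0325). The latter call was lost in 15 of 36 alternative fits, among them those without stable tumour 2, 3 or 4 or responder 1, 4, 6, 7 or 8. The log2 fold change stayed negative in all 36, at -0.54 to -0.12, and the adjusted p reached 0.785.

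Irf1, the transcription factor induced early by interferon gamma (chromosome 11, 53770014 to 53778374), was at 33.7, 43.6, 40.0, 36.4 and 61.8 CPM in the controls. The non-responders were spread out one by one, at 151, 59.1, 80.1, 181, 124 and 344 CPM for non-responders 1 to 6. Stable tumours held 250 to 369 CPM (median 275) and responders 156 to 281 (median 184). Non-responder 6 lay within the range of the stable tumours, and non-responder 2 was below the highest control. Irf1 rose against control by 2.74 on the log2 scale in stable tumours (SE 0.32, adjusted p = 1e-06), 2.23 in responders (SE 0.30, adjusted p = 1.93e-06) and 1.86 in non-responders (SE 0.31, adjusted p = 0.000514). Among the anti-CTLA-4 groups stable tumours exceeded non-responders in Irf1 by 0.88 (SE 0.28, adjusted p = 0.0372). The differences of responders from non-responders, 0.37 (SE 0.26, adjusted p = 0.241), and from stable tumours, -0.51 (SE 0.26, adjusted p = 0.124), did not pass. The gene overlaps Gm17334 on the opposite strand, and the stranded kit named in the protocol would separate the 2 only if strand was used in counting, which is not given in the sources used here.

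Of the 8 genes, the feedback inhibitors Socs1 and Socs3 were the ones that passed the test between responders and non-responders. Socs1 (chromosome 16, 10782240 to 10785536, minus strand) was at 2.37, 3.09, 2.78, 2.22 and 4.09 CPM in the controls, and the lowest anti-CTLA-4 tumour, non-responder 3, was above all of them at 4.81. Non-responders reached 26.1 CPM (median 13.2), stable tumours held 18.7 to 47.7 (median 24.7) and responders 16.1 to 31.0 (median 22.4). Socs1 rose against control by 3.21 on the log2 scale in stable tumours (SE 0.36, adjusted p = 8.22e-07), 2.95 in responders (SE 0.34, adjusted p = 3.25e-07) and 2.21 in non-responders (SE 0.34, adjusted p = 0.000461). It exceeded the non-responder level in stable tumours by 1.00 (SE 0.30, adjusted p = 0.0286) and in responders by 0.74 (SE 0.29, adjusted p = 0.036). The responder call of Socs1 was lost in 11 of 36 alternative fits, where the adjusted p reached 0.275. Among them were the fits without non-responder 2, 3 or 5 or responder 1, 7 or 8, each of which moved the adjusted p to between 0.0501 and 0.0889. The log2 fold change stayed positive in all 36, at 0.57 to 1.05. The responder minus stable difference in Socs1 did not pass the test (log2 fold change -0.26, SE 0.28, adjusted p = 0.475).

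Socs3 (chromosome 11, 117966079 to 117970047, minus strand) was at 26.0, 24.0, 22.9, 15.0 and 22.6 CPM in the controls, at 21.5 to 59.5 in non-responders (median 33.6), at 51.0 to 73.0 in stable tumours (median 63.2) and at 36.4 to 91.3 in responders (median 53.4). The highest value of all 25 tumours was that of responder 2. No stable or responder tumour overlapped the controls, and non-responders 2 and 3 lay among them. Socs3 rose against control by 1.51 on the log2 scale in stable tumours (SE 0.24, adjusted p = 1.87e-05) and 1.40 in responders (SE 0.23, adjusted p = 1.35e-05), while the non-responder value of 0.67 (SE 0.23, adjusted p = 0.0526) fell just short. It was higher than in non-responders in both responders, by 0.73 (SE 0.21, adjusted p = 0.00637), and stable tumours, by 0.83 (SE 0.22, adjusted p = 0.0134). Both of these Socs3 calls held in all 36 alternative fits and left-out tumours that were run. Responder minus stable was -0.10 (SE 0.20, adjusted p = 0.708).

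**Figure D2:**
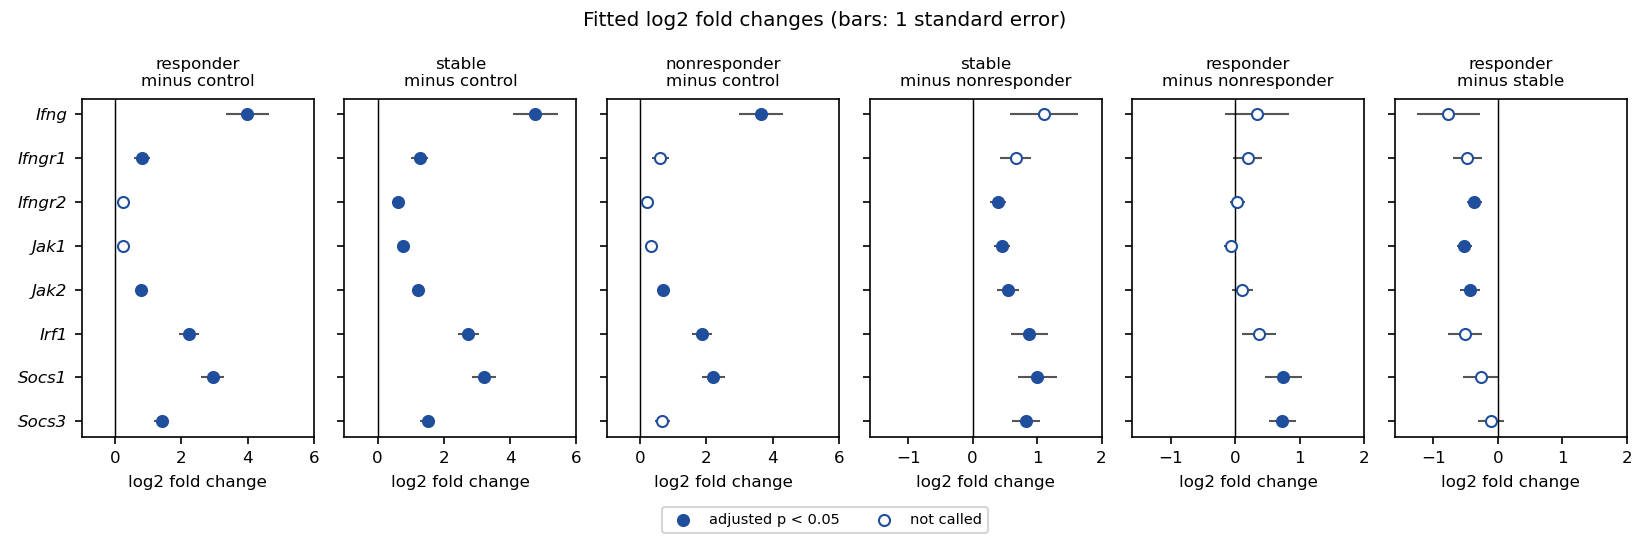
Fitted log2 fold changes of the 8 genes in the 6 comparisons, with bars of 1 standard error; filled points have an adjusted p below 0.05 and open points do not. The panels against control share one axis and the panels among anti-CTLA-4 groups a narrower one. Ifng, Irf1 and Socs1 lie farthest from 0 against control, and the responder minus stable points lie below 0 for all 8 genes.

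Counted over the 8 genes, stable tumours were the group in which all members rose against control, 8 of 8, where 22.2% of all genes tested were higher and the members' median log2 fold change was 1.39 against 0.02 for all genes. In responders 6 of 8 were higher than control, against 36.1% of all genes, with a median of 1.10 against 0.16. In non-responders 4 of 8 were higher, Ifng, Jak2, Irf1 and Socs1, against 10.6% of all genes, with a median of 0.68 against 0.04. None of the 8 was lower than control in these 3 comparisons, where 19.6%, 28.9% and 3.29% of all genes were lower.

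Stable tumours exceeded non-responders in 6 of 8 genes, all but Ifng and Ifngr1, where 7.08% of all genes were higher, and the members' median was 0.75 against -0.02. That count depended on single tumours. It was 8 without non-responder 6, when Ifng reached a log2 fold change of 1.80 (adjusted p = 0.0125). It was 1, Socs3 alone, without stable tumour 3. It was 2 without non-responder 2, 3 or 5, and 3 without non-responder 1 or stable tumour 2 or 4. None was lower, as 7.86% of all genes were, and the sign stayed positive for every member in all of these fits.

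Responders exceeded non-responders in 2 of 8 genes, Socs1 and Socs3, where 25.2% of all genes were higher, so the share among the members was that of the background, and none was lower, where 23.8% of all genes were. The members' median log2 fold change was 0.27 against 0.05. Without non-responder 6 Irf1 also passed, at 0.77 (adjusted p = 0.00703).

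Responders were below stable tumours in 3 of 8 genes, Ifngr2, Jak1 and Jak2, where 17.8% of all genes were lower and 20.5% higher, and the members' median was -0.45 against 0.01. The responder libraries with the lowest protein-coding share, responders 1 and 4, were the lowest responders for Jak1, at 143 and 157 CPM, and for Jak2, at 109 and 110 CPM. For Ifngr2 they were at 50.6 and 43.4 CPM, and responders 6 and 8 were lower, at 41.6 and 37.9 CPM. Responder 5, whose protein-coding share was like that of the other groups, was the highest responder for Ifng, Ifngr1, Ifngr2, Jak1, Jak2 and Irf1. Without responders 1 and 4 Jak1 alone was called, at -0.44 (adjusted p = 0.0146). Once protein-coding share entered as a covariate, no member was called, and 1 had an unadjusted p under 0.05. Of all 18032 genes 0 were called in that fit and 2296 had an unadjusted p under 0.05. With the log2 of the share in place, again no member was called and 2 had an unadjusted p under 0.05. Jak1 was then at -0.35 (adjusted p = 0.077), and 322 genes were called in all. As low share and responder label nearly coincide, the loss of calls cannot be assigned to share or to group. DESeq2 without a covariate called 3 members. Without stable tumour 3 only Jak1 remained called, at -0.45 (adjusted p = 0.00952).

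Levels of different genes can be compared per length of transcript, in RPKM, which scales the reads of a gene by its length and by library. The deposited RPKM did not follow the total counts of the libraries. For Ifngr1, control 1 had 1878 counts of 28.2 M and an RPKM of 20.0. Responder 1 had 307 counts of 13.2 M and an RPKM of 25.8. The library scale behind the RPKM was not settled here. Over the 25 tumours Irf1 had the highest median RPKM, 81.1, followed by Ifngr1 at 35.5, Jak1 at 29.4, Jak2 at 23.9, Ifngr2 at 21.7, Socs3 at 17.3, Socs1 at 9.70 and Ifng at 2.32. The first place of Irf1 did not hold in the controls, where its median RPKM of 17.8 (13.7 to 26.1) was below that of Jak1 at 21.5 and Ifngr1 at 19.4. Over all tumours, the ranges of Jak1 (20.1 to 42.6), Jak2 (11.1 to 31.8) and Ifngr2 (16.3 to 29.4) overlapped, so the order of those neighbours does not stand out from their spread. The ratio of the highest to the lowest tumour in CPM was 268 for Ifng, 21.5 for Socs1, 10.9 for Irf1, 6.10 for Socs3, 3.65 for Ifngr1, 2.96 for Jak2, 2.34 for Jak1 and 2.15 for Ifngr2. The genes with a GAS or ISRE-like match in the windows shown above were the 4 with the widest range, a description of 8 genes and not a test.

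Within a tumour, the level of one member relative to its partner varied between groups. These 3 ratios were chosen after the values were seen and are given as descriptions, without a test. Jak2 over Jak1 in RPKM was 0.507 to 0.658 in controls (median 0.556), 0.580 to 0.937 in non-responders (median 0.737), 0.747 to 0.856 in stable tumours (median 0.801) and 0.772 to 1.06 in responders (median 0.836). All stable and responder tumours were above all controls. Socs1 over Socs3 had a median of 0.210 in controls (0.153 to 0.313), of 0.618 in non-responders and of 0.673 in both stable tumours and responders. All non-responders, all stable tumours and 7 of 8 responders were above all controls, and the remaining one, responder 2 at 0.256, was the tumour with the highest Socs3. Ifngr1 over Ifngr2 was 1.00 to 1.59 in controls (median 1.11) and 1.78 to 2.15 in stable tumours (median 1.81), without overlap, while non-responders (1.12 to 2.11, median 1.49) and responders (1.19 to 2.49, median 1.56) overlapped both.

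**Figure D3:**
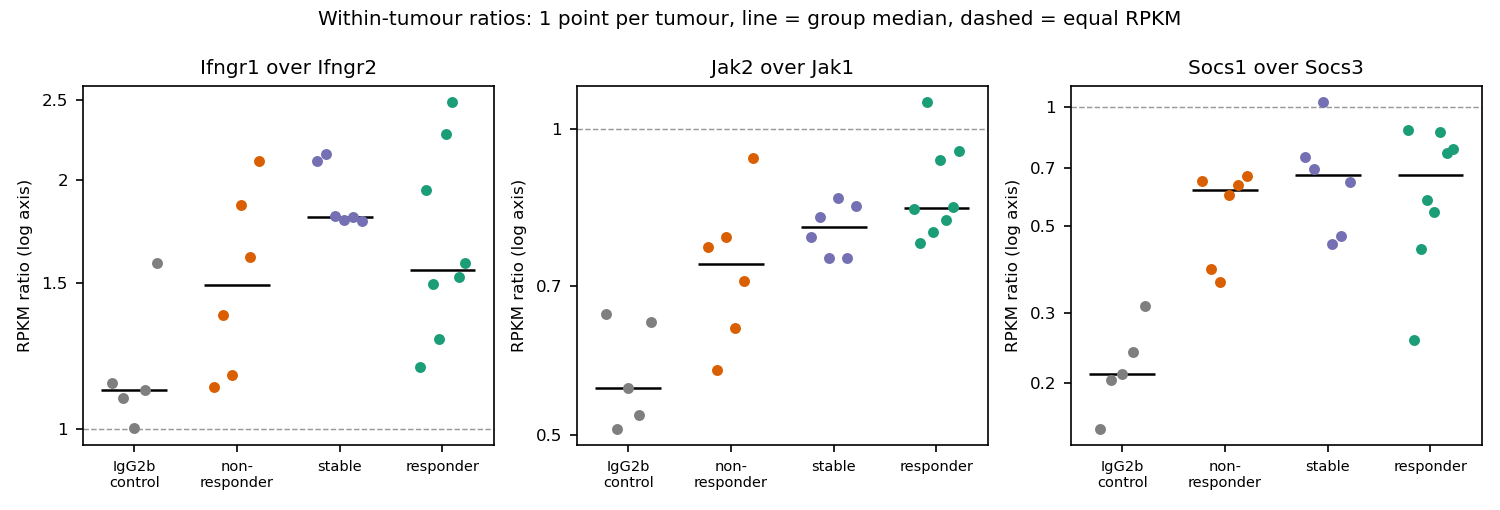
RPKM ratios of 3 pairs of genes within each tumour (log axis), with 1 point per tumour, a line at the group median and a dashed line where the RPKM of both genes is equal. The control medians are the lowest for all 3 ratios. Control points overlap non-responders for Jak2 over Jak1, responder 2 for Socs1 over Socs3, and non-responders and responders for Ifngr1 over Ifngr2. The stable points are packed most tightly for Ifngr1 over Ifngr2 and Jak2 over Jak1.

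Tumours with more ligand than the rest of their group tended to have more Irf1 over the 25 tumours as a whole. Group means were removed from the log2 CPM of each gene, and Ifng was set against each of the other 7 members over the 25 tumours. For Irf1, Pearson's r was 0.90 (permutation p = 1e-05, the smallest that 100000 resamples can give, adjusted p = 7e-05 over the 7 relations) and Spearman's rho was 0.81 (permutation p = 0.00014, adjusted p = 0.00098). Without non-responders 2 and 6, the tumours farthest from the median of Ifng, r was 0.82.

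The other members followed Ifng less closely. Socs1 had r = 0.75 (rho = 0.66), Jak2 0.67 (rho = 0.49), Ifngr1 0.62 (rho = 0.51), Socs3 0.62 (rho = 0.57), Jak1 0.59 (rho = 0.54) and Ifngr2 0.50 (rho = 0.53). All 7 adjusted permutation p-values for r were at or below 0.00665 and those for rho at or below 0.0266. Without non-responders 2 and 6 the values of r were 0.60 for Socs1, 0.52 for Jak1, 0.49 for Ifngr1, 0.44 for Jak2, 0.44 for Socs3 and 0.36 for Ifngr2. The relations of Socs3 (permutation p = 0.0639) and Ifngr2 (permutation p = 0.0549) no longer passed over all groups without those tumours. Depth and composition are shared by all genes of a library and can enter each of these values.

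The relations within single groups varied. In the 6 non-responders Ifng and Irf1 had the same rank order (rho = 1, exact permutation p = 0.00278, adjusted p = 0.0292) and r = 0.98 (exact permutation p = 0.00139, adjusted p = 0.0146 over 21 relations). Without the 2 non-responders farthest from the median r was 0.96. In the same tumours r was 0.97 for Socs3, 0.96 for Socs1 and 0.94 for Ifngr2 (adjusted p = 0.0194 each, exact permutation test), and 0.96, 0.93 and 0.93 without the 2 farthest. In the 6 stable tumours Ifngr2 had the same rank order as Ifng (rho = 1, exact permutation p = 0.00278, adjusted p = 0.0292), with r = 0.98 (exact permutation p = 0.00139, adjusted p = 0.0146) and 0.97 without the 2 farthest. Jak2 there had r = 0.95 (exact permutation, adjusted p = 0.0194) and 0.71 without the 2 farthest. The rho of Socs1, Socs3 and Ifngr2 in non-responders and of Jak2 in stable tumours did not pass (adjusted p = 0.117 to 0.175, exact permutation). In the 6 stable tumours r for Irf1 was 0.68 (exact permutation p = 0.132, adjusted p = 0.163), with rho = 0.14 (exact permutation p = 0.803, adjusted p = 0.84), and r was 0.02 without the 2 farthest. In the 8 responders r for Irf1 was 0.65 (exact permutation p = 0.0819, adjusted p = 0.129) with rho = 0.57 (exact permutation p = 0.151, adjusted p = 0.198). For Socs1 in responders r was -0.13 (exact permutation p = 0.755, adjusted p = 0.755) and rho 0.10 (exact permutation p = 0.84, adjusted p = 0.84), where responder 1 had the lowest Ifng and the highest Socs1. Whether these relations differ between groups was not tested.

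**Figure D4:**
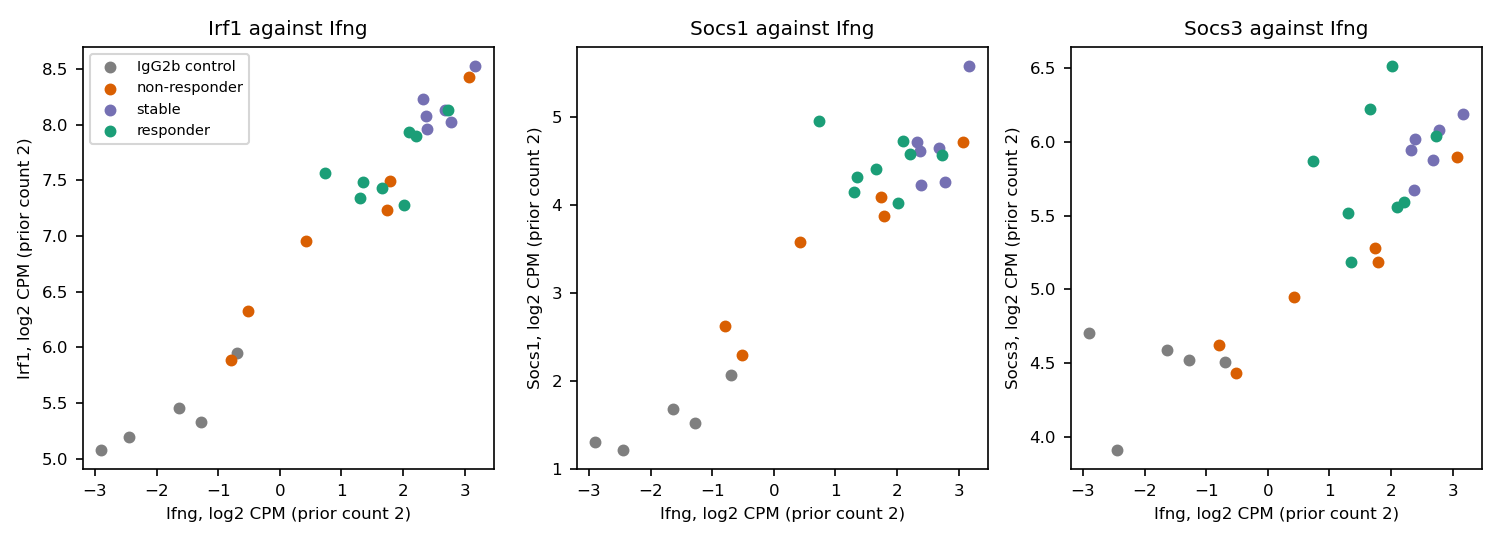
Irf1, Socs1 and Socs3 against Ifng in 25 tumours, all as log2 CPM with a prior count of 2, 1 point per tumour and colours for the 4 groups. Irf1 follows Ifng along one band from the controls to stable tumour 3; responder 1 lies above the band for Socs1, and the responders scatter widely for Socs3.

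The genes whose levels were most like those of the members were found from Pearson's r of log2 CPM over all 25 tumours, group differences included, among the genes tested. Nearest to Ifng were Icam1 (r = 0.98), Cd40 (r = 0.98), Irf1 itself (r = 0.98), Klra2 (r = 0.98) and Slamf8 (r = 0.97). Nearest to Irf1 were the guanylate-binding protein genes Gbp6 (r = 0.99) and Gbp10 (r = 0.99), the peptide transporter gene Tap1 (r = 0.98), Gvin1 (r = 0.98) and Irf8 (r = 0.98). Nearest to Socs1 were Tap2 (r = 0.98), Trafd1 (r = 0.98), Relb (r = 0.98), the MHC class II activator Ciita (r = 0.98) and Il10ra (r = 0.97). Nearest to Socs3 were the urokinase receptor gene Plaur (r = 0.97), Ptgs2, which encodes cyclooxygenase-2 (r = 0.96), Tnfrsf9 (r = 0.96), Inhba (r = 0.96) and Skil (r = 0.95).

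A list of 35 known interferon gamma targets was followed in the same comparisons. Their levels in whole tumour do not show which signal or which cells they came from. Of the 35 targets, 34 were higher than control in stable tumours (median log2 fold change 2.36), all but the chemokine gene Cxcl11. In non-responders 31 were higher than control (median 1.55) and in responders 29 (median 1.86), and none was lower than control in any of the 3. Over all genes tested the shares higher than control in the same order were 22.2%, 10.6% and 36.1%, with medians of 0.02, 0.04 and 0.16. Nos2, inducible nitric oxide synthase, rose from 1.90 ± 0.48 CPM (SD, n = 5) in controls to 28.4 ± 41.6 (n = 6) in non-responders, 153 ± 58.6 (n = 6) in stable tumours and 154 ± 82.9 (n = 8) in responders. Its log2 fold changes against control were 3.91 (SE 0.74, adjusted p = 0.00117), 6.34 (SE 0.83, adjusted p = 2.98e-06) and 6.34 (SE 0.82, adjusted p = 1.19e-06). The guanylate-binding protein gene Gbp4 rose by 3.27 (SE 0.49, adjusted p = 0.000436), 4.39 (SE 0.52, adjusted p = 1.11e-06) and 4.41 (SE 0.51, adjusted p = 3.08e-07).

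Among the anti-CTLA-4 groups fewer targets differed. Stable tumours were above non-responders in 7 of 35 targets (Cd274, Ciita, Gbp2, Gbp5, Tap2, Tapbp and Nos2; median 0.71), where 7.08% of all genes were higher. Cd274, which encodes PD-L1, was higher by 1.45 (SE 0.30, adjusted p = 0.00411), Nos2 by 2.43 (SE 0.63, adjusted p = 0.0127) and Gbp2 by 1.30 (SE 0.40, adjusted p = 0.0311). Responders were above non-responders in 6 of 35 (Cd274, Ciita, Nlrc5, Gbp4, Gbp5 and Nos2; median 0.07), a smaller share than the background of 25.2%. There Nos2 was higher by 2.43 (SE 0.60, adjusted p = 0.00272), Gbp4 by 1.14 (SE 0.40, adjusted p = 0.0228) and Cd274 by 1.08 (SE 0.28, adjusted p = 0.00375). Once protein-coding share entered as a covariate, no target was called in responder minus non-responder and 2 had an unadjusted p under 0.05. Of all 18032 genes 1809 were called in that fit, 915 of them higher. DESeq2 without the covariate called 7 targets.

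Responders were below stable tumours in 15 of 35 targets (median -0.67) and above them in none, where 17.8% of all genes were lower and 20.5% higher, and DESeq2 called 15 lower and 1 higher. The Fc receptor gene Fcgr1 was at 18.5 ± 10.4 CPM (SD, n = 8) in responders and 42.2 ± 11.4 (n = 6) in stable tumours, giving -1.18 log2 units (SE 0.28, adjusted p = 0.00446). Tgtp1, an interferon-induced GTPase gene, was at 90.0 ± 44.8 and 193 ± 23.7 CPM (log2 fold change -1.10, SE 0.42, adjusted p = 0.0426). B2m, the MHC class I light chain, was at 1420 ± 972 and 3018 ± 414 CPM (log2 fold change -1.09, SE 0.32, adjusted p = 0.0125). Without responders 1 and 4 the count of lower targets was 4, and once protein-coding share entered as a covariate it was 0, with 3 at an unadjusted p under 0.05.

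Of 14 signalling partners and regulators, 9 were higher and 1 lower than control in stable tumours, 9 and 1 in responders, and 5 and 0 in non-responders. Of all genes 22.2%, 36.1% and 10.6% were higher in the same order, and 19.6%, 28.9% and 3.29% lower. The lower gene was Ptpn11, which encodes the phosphatase SHP2, with log2 fold changes of -0.42 in stable tumours (SE 0.09, adjusted p = 0.000753) and -0.64 in responders (SE 0.09, adjusted p = 1.74e-06). Cish, a STAT5-induced relative of the SOCS genes, rose from 3.91 ± 1.17 CPM (SD, n = 5) in controls to 12.8 ± 5.00 (n = 6) in non-responders, 25.2 ± 7.26 (n = 6) in stable tumours and 31.8 ± 7.29 (n = 8) in responders. Irf8, a myeloid and interferon-induced transcription factor, rose against control by 2.74 in stable tumours (SE 0.35, adjusted p = 2.25e-06), 2.27 in responders (SE 0.33, adjusted p = 4.77e-06) and 1.79 in non-responders (SE 0.34, adjusted p = 0.00102).

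Responders exceeded non-responders in 5 of the 14 partners and were lower in 1, where 25.2% of all genes were higher and 23.8% lower. Cish was higher by 1.31 log2 units (SE 0.25, adjusted p = 0.000314), Irf2, an antagonist of IRF1 at shared sites, by 0.93 (SE 0.21, adjusted p = 0.00156) and Pias3, an inhibitor of STAT proteins, by 0.47 (SE 0.14, adjusted p = 0.0104), while Ptpn11 was lower (-0.45, SE 0.08, adjusted p = 0.000266). Ptpn1 and Pias4 were the other 2 higher genes. Once protein-coding share entered as a covariate, 1 was higher and 1 lower, where 1809 of all 18032 genes were called, 915 of them higher. Stable tumours exceeded non-responders in 3 of 14, where 7.08% of all genes were higher, with Cish at 0.98 (SE 0.26, adjusted p = 0.0132), Irf8 at 0.95 (SE 0.31, adjusted p = 0.0399) and the JAK2 phosphatase gene Ptpn1 at 0.36 (SE 0.11, adjusted p = 0.029).

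Responders were below stable tumours in 4 of the 14 partners and above them in 2, where 17.8% of all genes were lower and 20.5% higher. The higher genes were Irf2 at 0.55 (SE 0.21, adjusted p = 0.0448) and Pias3 at 0.54 (SE 0.15, adjusted p = 0.00791). Ptpn6, which encodes the leukocyte phosphatase SHP1, was lower at -0.86 log2 units (SE 0.24, adjusted p = 0.0097), Irf9 at -0.41 (SE 0.15, adjusted p = 0.034) and Stat3 at -0.39 (SE 0.13, adjusted p = 0.021). Ptpn11 was the other lower gene. Without responders 1 and 4 the counts were 1 higher and 1 lower, and once protein-coding share entered as a covariate both were 0, with 0 at an unadjusted p under 0.05.

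Upstream of the ligand, 13 of 14 genes that induce or sustain Ifng transcription passed the low-count filter, Il2 being the one that did not. Against control 12 of the 13 were higher in stable tumours (median log2 fold change 3.19), 11 in responders (median 3.09) and 9 in non-responders (median 1.75), where 22.2%, 36.1% and 10.6% of all genes were higher. Il18r1, a chain of the IL-18 receptor, rose from 1.90 ± 0.87 CPM (SD, n = 5) in controls to 12.8 ± 9.05 (n = 6) in non-responders, 33.0 ± 7.25 (n = 6) in stable tumours and 38.4 ± 10.6 (n = 8) in responders. Il12b, the shared chain of IL-12 and IL-23, rose by 4.08 in stable tumours (SE 0.62, adjusted p = 1.41e-05), Il12rb2, the IL-12 receptor chain of Th1 cells, by 4.38 in responders (SE 0.61, adjusted p = 2.56e-06) and Tbx21, which encodes T-bet, by 2.93 in non-responders (SE 0.44, adjusted p = 0.000436).

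Responders were above non-responders in 8 of the 13 inducers (median 0.97), where 25.2% of all genes were higher and Ifng itself was not called. Runx3, a transcription factor of cytotoxic T cells, was higher by 1.72 log2 units (SE 0.35, adjusted p = 0.000647), Il18rap by 1.67 (SE 0.32, adjusted p = 0.000409) and Il12rb2 by 1.64 (SE 0.48, adjusted p = 0.00787). Once protein-coding share entered as a covariate, 4 of 13 were called higher, where 915 of all 18032 genes were. Stable tumours were above non-responders in 5 of 13 (median 1.07), where 7.08% of all genes were higher, with Il18r1 at 1.37 (SE 0.37, adjusted p = 0.0169), the IL-12 signal transducer Stat4 at 1.24 (SE 0.40, adjusted p = 0.0371) and Il18rap at 1.14 (SE 0.33, adjusted p = 0.0244). Responders and stable tumours differed in none of the 13 by edgeR or of the 14 tested by DESeq2, at a median of 0.06, and 1 had an unadjusted p under 0.05 by each tool.

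Markers of the cells in the tumour moved with the same groups. The summed level of 6 T cell markers (Cd3d, Cd3e, Cd3g, Cd2, Cd8a and Cd4) was 7.64 to 22.7 CPM in controls and 19.2 to 161 in non-responders, against 119 to 186 in stable tumours and 75.2 to 210.3 in responders, and all 6 were higher than control in each anti-CTLA-4 group. The 4 NK cell markers (Ncr1, Klrb1c, Klrk1 and Eomes, which the inducer list also holds) summed to 4.77 to 15.3, 11.9 to 80.4, 54.7 to 99.3 and 33.0 to 86.7 CPM in controls, non-responders, stable tumours and responders. The 5 macrophage markers (Cd68, Adgre1, Csf1r, C1qa and Mrc1) summed to 379 to 666, 513 to 1494, 1388 to 2239 and 638 to 1898 CPM in that order. Of these markers 4 of 5 were lower in responders than in stable tumours, where 17.8% of all genes were lower. In the fit with protein-coding share as a covariate, 0 of all 18032 genes were called in responder minus stable. No T cell, NK cell or macrophage marker was at 0 throughout a group. The part of these cells in the differences of the 8 genes was not tested beyond the ratio described next.

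The non-responders differed from one another in these markers as well as in the 8 genes. Non-responder 6 had 344 CPM of Irf1, a T cell marker sum of 161 CPM and a pigment marker sum of 484 CPM. Non-responders 2 and 3 had 59.1 and 80.1 CPM of Irf1, T cell marker sums of 33.2 and 19.2 CPM and pigment marker sums of 6954 and 13725 CPM. Non-responders 1, 4 and 5 had 151, 181 and 124 CPM of Irf1. Their T cell marker sums were 61.5, 107 and 107 CPM and their pigment marker sums 3388, 985 and 624 CPM. Non-responder 1 thus had more Irf1 than non-responder 5 at a lower T cell sum and a higher pigment sum. The tumours labelled non-responder ranged in Irf1 from the level of the controls to that of the stable tumours.

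**Figure D5:**
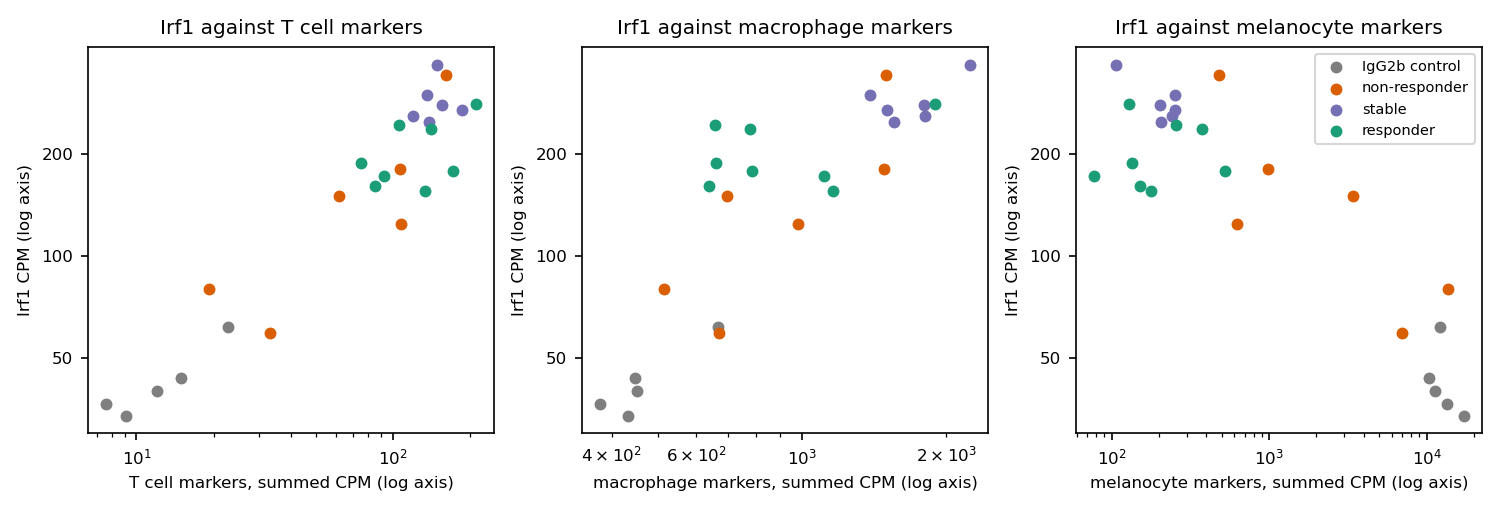
Irf1 against the summed CPM of T cell, macrophage and melanocyte markers in 25 tumours (both axes log), 1 point per tumour. Controls and non-responders 2 and 3 sit at the low end for T cell markers and the high end for melanocyte markers. The 7 responders other than responder 5 have Irf1 between 156 and 244 CPM at macrophage marker sums between 638 and 1160 CPM, below those of the stable tumours.

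To set the ligand against the T cells present, the mean log2 CPM of Cd3d, Cd3e, Cd3g and Cd2 was subtracted from that of Ifng in each tumour. The result was -2.33 ± 0.37 (SD, n = 5) in controls, -1.96 ± 0.84 (n = 6) in non-responders, -1.58 ± 0.45 (n = 6) in stable tumours and -2.10 ± 0.46 (n = 8) in responders. No difference passed the exact two-sided permutation test after adjustment over the 6 comparisons. The nearest were stable minus control, 0.75 (exact permutation p = 0.013, adjusted p = 0.0779), with 5 of 6 stable tumours above every control and a call without stable tumour 1 (0.87, exact permutation, adjusted p = 0.0476), and responder minus stable, -0.52 (exact permutation p = 0.0576, adjusted p = 0.173). The subtracted values of the anti-CTLA-4 groups differed from control by 0.23 to 0.75. On the same log2 CPM scale, Ifng itself averaged -1.79 in controls and 0.95 in non-responders. It averaged 2.62 in stable tumours and 1.76 in responders. The prior count of 2 in this scale raises low values, such as those of the controls with 1 to 10 Ifng counts. How far T cell content accounts for the Ifng differences was not tested. On the log2(RPKM + 1) scale the responder minus control value was -0.76 (adjusted p = 0.014 from the exact permutation test), a scale on which the control Ifng values of 0.0218 to 0.279 RPKM are smaller than the pseudocount.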

How the data were processed

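RNA-seq had been run on 25 tumours. Per the submitters' processing notes the reads were handled with bcl2fastq 2.17, Trimmomatic, STAR 2.5.1 and RSEM 1.2.22 on the mm10 build. The authors deposited RSEM-type estimated counts per gene for 55450 genes, whose identifiers all matched GENCODE mouse release M21 (GRCm38). Of these values 5.64% were not whole. The authors also deposited an RPKM table of 19522 rows, of which 18920 symbols matched the count table. The labels name polyA RNA and, in the protocol, a stranded total RNA kit; which applies was not settled. No column was left unmapped, and no 2 replicates agreed within sampling noise.

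Counts were rounded to whole numbers and fitted with edgeR 4.0.16 in R 4.3.3 (TMM, filterByExpr, robust quasi-likelihood, 4 group means, 25 tumours), which left 18032 genes. Alternatives were DESeq2 1.42.0, limma 3.58.1 on log2(RPKM + 1) and log2(RPKM + 0.1), other scaling and filters, each library's protein-coding share added as a covariate, and each tumour left out. In simulated counts for responder minus non-responder (18032 genes, 200 of them changed) the fit found 87% of the genes changed 4-fold and 53% of those changed 2-fold. Of its calls 3.6% were false. Apart from the changed genes, all simulated libraries shared the same mean profile. The real comparison had 8825 calls and a low protein-coding share in most responders, so these rates do not describe the fit under such a shift. Single values were tested by exact permutation and correlations by 100000 permutations within groups (Python 3.11.15, scipy 1.17.1).

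The 8 genes and all gene lists were chosen with earlier results of these data known. Genes named from the lists were up to 3 called genes each way with the highest and lowest log2 fold change among anti-CTLA-4 groups, up to 2 against control, with a mean of at least 1 CPM; the genes behind some small counts were named after their values were seen. Nearest genes were the 5 with the highest r, predicted genes left out. Of the signalling partners first listed, 1 gene is not reported here and was left out of that list's counts. The labels give each tumour its own id. Promoters came from RefSeq (GRCm38.p6), which held all 8 genes.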

Additional observations from a re-analysis of the deposited data

Results flagged for a closer look

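In each of the 32 combinations of gene and group, the highest and lowest tumours were set against the others of their group by Dixon's ratio, the gap to the nearest tumour divided by the range. For 3 of them the ratio exceeded the 95% critical value, where chance gives about 1 in 20. Jak1 in stable tumour 3 was the highest of 6, at 335 CPM against 248 to 270 in the others (ratio 0.719). Socs1 in the same tumour was also the highest of 6, at 47.7 CPM against 18.7 to 26.3 (ratio 0.637). Socs3 in control 4 was the lowest of 5, at 15.0 CPM against 22.6 to 26.0 (ratio 0.745).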

How the results depend on the processing

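The signs of all 8 genes against control and in stable minus non-responder held in all 36 alternative fits, as did all 8 calls in stable minus control and all 6 in responder minus control. In responder minus non-responder, 1 member (Socs3) was called with no low-count filter, with the fit limited to its 2 groups, with protein-coding share or its log2 as a covariate, and without responders 1 and 4. In stable minus non-responder 2 members were called with no low-count filter. In responder minus stable 0 were called with the share or its log2 as a covariate, and 1 by limma on either RPKM scale or without responders 1 and 4. In non-responder minus control 7 were called with the share as a covariate. With each tumour left out in turn, 1 to 3 members were called in responder minus non-responder, 1 to 8 in stable minus non-responder, 1 to 4 in responder minus stable, 4 to 6 in non-responder minus control, 8 in stable minus control and 6 to 8 in responder minus control. The log2 share and the joint removal of responders 1 and 4 were added after the data were seen.

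Over all genes, responder minus non-responder gave 8825 calls, 1809 with the share and 4628 with its log2. Responder minus stable gave 6895 calls, 0 with the share, 322 with its log2 and 4014 without responders 1 and 4. Stable minus non-responder gave 2695, and 1469, 1516 and 1524 without non-responder 2, non-responder 3 and stable tumour 3. Non-responder minus control gave 2501, 1561 with only those 2 groups, and 1593, 1570, 4236 and 1636 without control 1, control 4, non-responder 3 and non-responder 4. The fits with a covariate kept all 25 tumours, and the cause of these changes was not tested. In the comparisons with responders the share can hardly be separated from the group.

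Ifng relative to T cell markers moved to -0.49 in non-responder minus control, -0.49 in stable minus control and -0.76 in responder minus control, a reversed sign, on log2(RPKM + 1), where low Ifng values shrink towards 0 by construction. With Cd3e alone responder minus control was -0.15 and responder minus stable -1.26, which then passed. With tumours left out, responder minus non-responder ran from -0.39 to 0.0116 (without non-responder 6) and stable minus control from 0.62 to 0.87 (without stable tumour 1, which then passed). The correlations of Ifng with the 7 other members stayed positive and past the threshold with no centring, other size factors and RPKM, and leaving out single tumours gave 0.85 to 0.92 for Irf1. No paired analysis was possible because the labels give no replicate numbers, and those used here only name the tumours. Depth limited Ifng most, at 1 to 10 counts in controls.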
